A study of Mus musculus with 6 samples.

Results

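Foxp3, the transcription factor that defines regulatory T cells (Tregs), was examined together with 9 transcription factors that work with it or on it, in Tregs from the inflamed mouse colon. The 10 genes were taken by symbol: Foxp3, the Ikaros family genes Ikzf1, Ikzf2, Ikzf3 and Ikzf4, the RUNX gene Runx1 with its binding partner Cbfb, and the forkhead genes Foxp1, Foxo1 and Foxo3. Each matched 1 of the 24537 rows of the deposited table, and all 10 were among the 13211 genes tested, which are those with at least 1 TPM (a transcript level scaled for length and for library size) in at least 3 of the 6 libraries. The series holds 3 libraries labelled REV-ERB KO and 3 labelled REV-ERB WT. All came from colon Tregs of mice with colitis induced by the hapten TNBS: 150 µl of 1% TNBS was put on the skin and, 7 days later, the rectum received 100 µl at 2.5%. The comparison asks how loss of REV-ERB, a nuclear receptor of the circadian clock that represses transcription, goes with the transcriptome of these cells. The sources used here do not state which REV-ERB gene was removed or in which cells, the age of the animals, how the Tregs were isolated, or whether a Foxp3 reporter served for that.

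Foxp3 is a forkhead protein that binds DNA in large complexes, and Tregs need it throughout life to keep their identity. Runx1 and Cbfb form a heterodimer that binds the Foxp3 locus and also associates with the Foxp3 protein. Ikaros (Ikzf1), Helios (Ikzf2), Aiolos (Ikzf3) and Eos (Ikzf4) are zinc finger proteins that recruit corepressors, and Eos and Helios mark Tregs among CD4 T cells. Foxo1 and Foxo3 are forkhead factors kept out of the nucleus by AKT, and they help to switch Foxp3 on during Treg development. Foxp1 shares forkhead binding sites with Foxp3 and is known from mice to stabilise its binding.

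Foxp3 was the member with the largest difference between the groups, at 201 ± 32.1 TPM in the KO-labelled libraries and 568 ± 108 TPM in WT-labelled ones (mean ± SD, n = 3 each). In bulk samples fewer Foxp3+ cells and less Foxp3 RNA per cell cannot be told apart. Ikzf3 and Foxo1 were also lower in each KO-labelled library than in any WT-labelled one, with differences of -0.59 and -0.47 on the log2(TPM + 1) scale. Ikzf2, Ikzf4, Runx1, Cbfb, Foxp1, Foxo3 and Ikzf1 overlapped between the groups. By limma's moderated test with Benjamini-Hochberg adjustment over all genes tested, 0 of the 10 members passed the threshold of 0.05, as did 0% of all genes. At an unadjusted p under 0.05, 3 of the 10 members and 15.7% of all genes passed by limma, and 3 of the 10 and 16.4% by voom on the recovered reads, which also had 0 adjusted calls. The 3 members whose groups did not overlap were all lower in the KO-labelled libraries, where 10.4% of all genes tested were lower without overlap and 10.6% were higher.

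**Figure D1:**
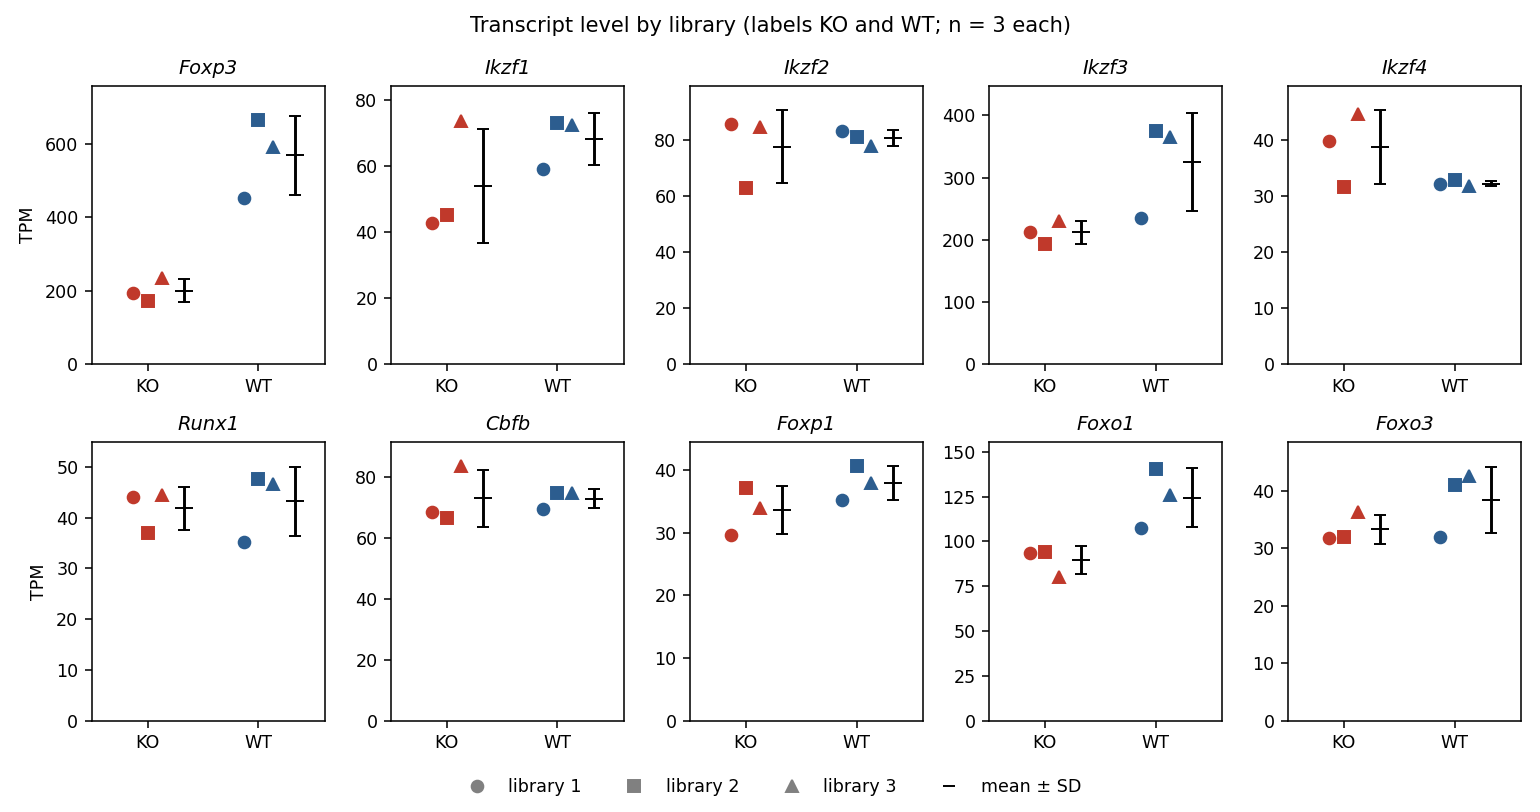
Transcript level in TPM (y axis, from 0) of each of the 10 genes in the 3 KO-labelled libraries and the 3 labelled WT; symbols mark the library number and bars the mean ± SD. Foxp3, Ikzf3 and Foxo1 show no overlap between the groups, and the libraries labelled WT 1 (Foxp3, Ikzf3, Runx1, Foxo1, Foxo3) and KO 3 (Ikzf1, Cbfb) stand apart from the other libraries of their groups for several genes.

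The genes of the knockout were checked first. Nr1d1, which encodes REV-ERBα, was measured at 169, 154 and 141 TPM in KO-labelled libraries 1, 2 and 3, against 66.3, 104.0 and 88.2 TPM in WT-labelled libraries 1, 2 and 3. Its transcript was thus higher, not lower, in every KO-labelled library. The sources used here do not state the removed exons, so the level of the whole transcript does not settle the labels, and every direction given below is that of the labels. Nr1d2, which encodes REV-ERBβ, stood at 68.8 ± 18.2 TPM in KO-labelled and 61.0 ± 10.04 TPM in WT-labelled libraries. The KO-labelled libraries held 12641850 to 15890630 reads and those labelled WT 9794480 to 12122575, so every KO-labelled library was deeper. Cd4 lay between 415 and 429 TPM in the KO-labelled libraries and between 451 and 513 TPM in WT-labelled ones, while Cd8a stayed under 1 TPM in all 6. The summed level of 17 epithelial markers was 3228 to 6398 TPM in the KO-labelled libraries and 2245 to 3209 TPM in WT-labelled ones, so RNA of other cells was present in both groups. The summed levels of 14 macrophage and dendritic cell markers (934 to 1718 TPM in KO-labelled and 908 to 1430 TPM in WT-labelled libraries) and of 11 B and plasma cell markers (747 to 2324 TPM in KO-labelled and 929 to 1750 TPM in WT-labelled libraries) overlapped between the groups, and 0 genes of either list differed without overlap. Among 8 neutrophil markers Camp was at 0 in all libraries and the summed level was 14.1 to 42.8 TPM in KO-labelled and 4.35 to 11.7 TPM in WT-labelled libraries. Nuclear retained RNAs such as Malat1 and Neat1 summed to 445 to 494 TPM in the KO-labelled libraries and 787 to 1014 TPM in WT-labelled ones, and 3 of 3 tested were below 0 (median -0.93). Of 13 fibroblast, muscle and endothelial markers, 13 were above 0 (306 to 550.3 TPM in KO-labelled and 249 to 512 TPM in WT-labelled libraries), and the red blood cell markers were at 0 in the KO-labelled libraries and summed to at most 68.1 TPM in WT-labelled ones. Of these, only the epithelial level was entered as a covariate, with the values given below. The part of these RNAs in the members' differences was not otherwise tested.

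Foxp3 (transcript NM_054039 on the plus strand of chromosome X, from 7579676 to 7595243 in build mm10) was measured at 195, 171 and 235 TPM in KO-labelled libraries 1, 2 and 3, and at 451, 664 and 590.2 TPM in WT-labelled libraries 1, 2 and 3. The highest KO-labelled library was lower than the lowest WT-labelled one. These levels rest on 6195, 5969 and 9297 recovered reads in the KO-labelled libraries and 11070, 19250 and 16595 in WT-labelled ones, so Foxp3 had fewer reads in the deeper libraries. On the log2 scale Foxp3 differed by -1.49 (SE 0.17, 95% interval -1.89 to -1.095, limma adjusted p = 0.0678), or 0.353 of the mean level of the WT-labelled libraries, and Foxp3 ranked 3 of the 13211 genes by p. The exact two-sided permutation p was 0.1, the smallest that 3 against 3 libraries allow. The call depended on a single library: without the library labelled WT 1, Foxp3 differed by -1.65 (limma adjusted p = 0.02829) and was among 14 genes that passed, 12 of them lower in the KO-labelled libraries. Without the library labelled KO 1 the limma adjusted p was 0.2237.

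The row of Foxp3 overlaps those of 2 genes. Ccdc22, on the opposite strand at the end of Foxp3, overlapped between the groups, at 17.8, 22.7 and 20.6 TPM in the KO-labelled libraries and 17.6, 18.6 and 21.0 TPM in WT-labelled ones. Ppp1r3fos, a noncoding gene on the same strand that runs over the start of Foxp3, stood at 30.8, 27.8 and 39.9 TPM in the KO-labelled libraries and 44.9, 63.8 and 54.4 TPM in WT-labelled ones. That is a difference of -0.71 (limma adjusted p = 0.1656), also without overlap. The sources used here do not state how reads in the shared part were assigned.

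RefSeq promoter windows (build GRCm38.p6, 250 bases before a transcript start to 50 after it) matched 7 of the 10 members, with 12 windows. The 2 windows of Foxp3 and the window of Foxo1 are shown because these genes differed without overlap. Capitals mark matches, on either strand, to AGGTCA (a half-site shared by REV-ERB and ROR receptors), TGTGGT (RUNX), TGTTTAC (forkhead) and TGGGAA (Ikaros). No matches overlap one another.
Foxp3, chrX:7579426-7579725, plus strand, the start of the measured transcript: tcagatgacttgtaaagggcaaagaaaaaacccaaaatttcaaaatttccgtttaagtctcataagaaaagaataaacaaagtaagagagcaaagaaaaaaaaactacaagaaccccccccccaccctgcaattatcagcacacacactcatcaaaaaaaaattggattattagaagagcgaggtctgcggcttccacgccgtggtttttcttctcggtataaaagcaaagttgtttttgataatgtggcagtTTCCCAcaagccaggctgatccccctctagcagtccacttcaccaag
Foxp3, chrX:7580233-7580532, plus strand, a second start within the gene: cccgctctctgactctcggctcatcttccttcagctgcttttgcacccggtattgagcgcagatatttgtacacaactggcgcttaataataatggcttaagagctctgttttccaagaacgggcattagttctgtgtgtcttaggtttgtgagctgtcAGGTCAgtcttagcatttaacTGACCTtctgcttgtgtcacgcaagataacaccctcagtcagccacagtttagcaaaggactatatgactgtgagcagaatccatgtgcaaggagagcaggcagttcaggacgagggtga
Foxo1, chr3:52268087-52268386, plus strand: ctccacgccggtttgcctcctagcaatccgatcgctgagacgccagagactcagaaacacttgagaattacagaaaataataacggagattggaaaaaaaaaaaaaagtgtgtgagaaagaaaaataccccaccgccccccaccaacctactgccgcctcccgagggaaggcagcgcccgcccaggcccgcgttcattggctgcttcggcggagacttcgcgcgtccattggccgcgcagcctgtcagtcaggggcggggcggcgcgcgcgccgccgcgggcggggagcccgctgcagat
The second Foxp3 window holds 2 matches to the REV-ERB and ROR half-site, starting 91 and 70 bases before that start on opposite strands. Of all 32851 windows, 16.3% hold at least 1. The first Foxp3 window holds 1 match to the Ikaros letters, found in 25.6% of all windows, and the Foxo1 window holds none of the 4. Among the 12 windows, 1 holds the RUNX letters, with 2 matches just inside the transcript at the distal start of Runx1, against 16.8% of all windows. The forkhead letters, in 3.65% of all windows, are in none of the 12. A match of letters is not a bound site.

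Epithelial RNA tended to be higher in the KO-labelled libraries and ran opposite to Foxp3 within each group. The 17 epithelial markers had a mean log2(TPM + 1) of 6.93, 7.53 and 6.38 in KO-labelled libraries 1, 2 and 3, and 6.59, 5.85 and 6.18 in WT-labelled libraries 1, 2 and 3. Within each group the library with the most epithelial RNA had the least Foxp3. The libraries labelled KO 3 and WT 1 were close in epithelial RNA and their order depended on the measure, with mean log2 levels of 6.38 in KO 3 and 6.59 in WT 1 and summed levels of 3228 TPM in KO 3 and 3209 TPM in WT 1. Foxp3 stood at 235 TPM in KO 3 and 451 TPM in WT 1. With the epithelial level as a covariate the difference of Foxp3 was -1.12 (SE 0.13, limma unadjusted p = 7.6e-05, adjusted p = 0.5378). Without the covariate its limma unadjusted p was 2.7e-05 (adjusted p = 0.0678). The adjusted p also depends on the other genes tested. Genes with a limma unadjusted p under 0.05 numbered 847 with the covariate and 2068 without it.

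Foxp3 was then set against T cell genes of the same libraries, which takes scaling between libraries out of the comparison. The ratio of Foxp3 to Cd4 in TPM was 0.471, 0.412 and 0.547 in the KO-labelled libraries and 1.00, 1.29 and 1.15 in WT-labelled ones. The ratio of Foxp3 to Cd3e, a subunit of the T cell receptor complex, was 1.09, 1.02 and 1.05 in KO-labelled and 2.36, 2.30 and 2.02 in WT-labelled libraries. Both ratios were lower in every KO-labelled library. Relative to the mean of 12 pan T cell genes, Foxp3 lay at -0.45 ± 0.14 log2 units in the KO-labelled libraries and 0.85 ± 0.20 in WT-labelled ones (SD, n = 3 each), a difference of -1.30 (exact permutation p = 0.1, the smallest possible, two-sided). The pan T cell genes were themselves lower in the KO-labelled libraries by a mean of -0.20 log2 units.

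**Figure D2:**
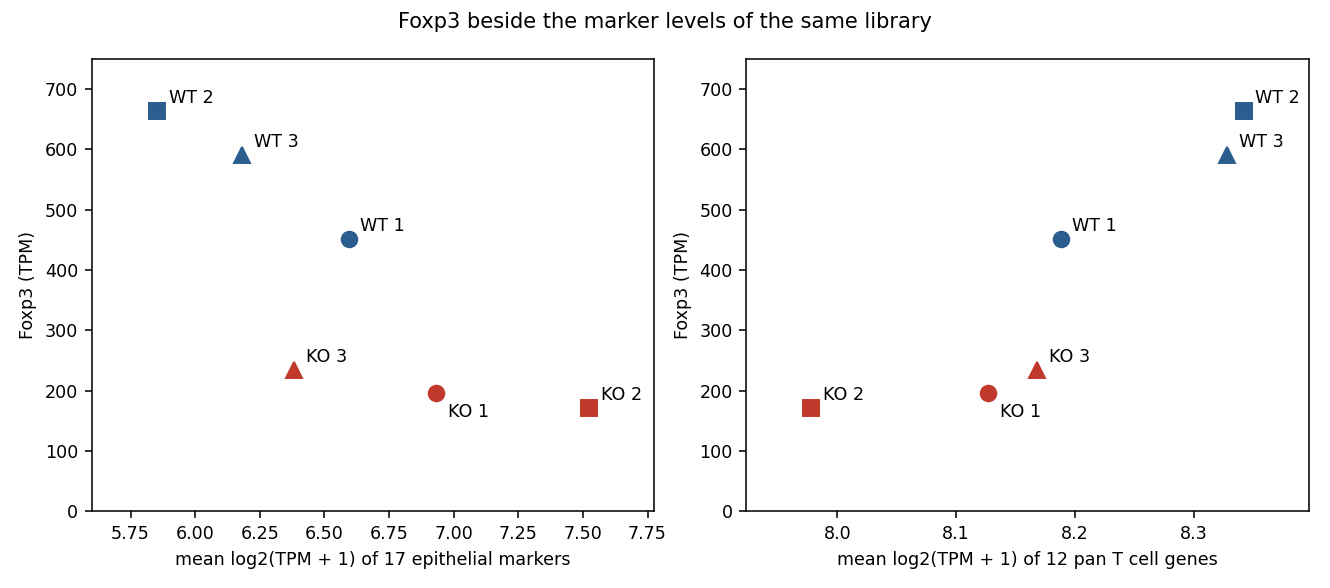
Foxp3 level in TPM (y axis) against the mean log2(TPM + 1) of 17 epithelial markers (left) and of 12 pan T cell genes (right), 1 point per library. Within each group Foxp3 is lowest where the epithelial level is highest, and the libraries labelled KO 3 (235 TPM) and WT 1 (451 TPM) lie closest across the groups in epithelial level, at 6.38 and 6.59.

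Among the Ikaros family, Aiolos (Ikzf3), which is known to silence Il2 in T helper cells, was the most abundant gene and the one of the 4 members from that family that differed without overlap. Its transcript (NM_011771, chromosome 11, 98464693 to 98546031, minus strand) stood at 213, 194 and 230.2 TPM in KO-labelled libraries 1, 2 and 3, and at 235, 375 and 366 TPM in WT-labelled libraries 1, 2 and 3. The groups come close, since the library labelled WT 1 lies just above KO 3. The difference was -0.59 (SE 0.18, limma adjusted p = 0.2206), and it was -0.81 without the library labelled WT 1 (limma adjusted p = 0.05561) and -0.27 with the epithelial covariate (limma adjusted p = 0.8635). After quantile normalization the groups of Ikzf3 overlapped.

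Ikaros (Ikzf1, NM_001301865, chromosome 11, 11690177 to 11772926, plus strand) had 42.8, 45.2 and 73.8 TPM in the KO-labelled libraries and 59.1, 73.0 and 72.5 TPM in WT-labelled ones. The library labelled KO 3 was the highest of all 6, while KO 1 and KO 2 were the lowest. The difference of -0.37 (95% interval -0.85 to 0.11, limma adjusted p = 0.4252) was -0.615 without KO 3 and 0.03 with the epithelial covariate.

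Helios (Ikzf2, NM_011770, chromosome 1, 69531210 to 69685960, minus strand), which helps to keep Tregs stable, stood at 85.6, 62.8 and 84.7 TPM in the KO-labelled libraries and 83.3, 81.0 and 77.8 TPM in WT-labelled ones. The library labelled KO 2 was low, and KO 1 and KO 3 were above every WT-labelled library. The difference was -0.07 (95% interval -0.38 to 0.25), and it turned to 0.08 without KO 2 and to 0.13 when libraries were scaled to the pan T cell genes. Eos (Ikzf4, NM_011772, chromosome 10, 128632415 to 128645993, minus strand), a corepressor partner of Foxp3, stood at 39.8, 31.6 and 44.7 TPM in KO-labelled and 32.1, 32.8 and 31.8 TPM in WT-labelled libraries, a difference of 0.24 (95% interval -0.09 to 0.57, limma adjusted p = 0.4389). In the limma fit it was the only member above 0, and it was above 0 in all 16 other settings, though its size varied. It was 0.13 without KO 3, 0.38 without KO 2 and 0.47 with the epithelial covariate (limma adjusted p = 0.6412). When libraries were scaled to the pan T cell genes it was 0.44 (limma adjusted p = 0.1648), and its groups did not overlap. With that scaling 22.9% of all genes tested were higher without overlap, and the median of all genes was 0.19.

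The make-up of the family followed from these levels. Ikzf3 made up 54.3, 56.2 and 51.7% of the summed TPM of the 5 Ikaros genes (Ikzf5 included) in the KO-labelled libraries, and 55.4, 64.9 and 65.0% in WT-labelled ones. Ikzf4 made up 9.17 to 10.2% in the KO-labelled libraries and 5.65 to 7.57% in WT-labelled ones, with no overlap. The ratio of Ikzf2 to Ikzf4 was 2.01 ± 0.13 in KO-labelled and 2.50 ± 0.08 in WT-labelled libraries (SD, n = 3 each, exact permutation p = 0.1, the smallest possible). Ikzf5 (Pegasus), the family member outside the 10 genes, was low at 11, 11.5 and 11.9 TPM in KO-labelled and 14.7, 15.6 and 14.5 TPM in WT-labelled libraries, a difference of -0.36 (limma adjusted p = 0.2684).

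Runx1 and Cbfb, the heterodimer, overlapped between the groups. Runx1 (NM_001111021, chromosome 16, 92601466 to 92826074, minus strand), the DNA-binding subunit, stood at 44.0, 37.0 and 44.5 TPM in the KO-labelled libraries and at 35.2, 47.7 and 46.6 TPM in WT-labelled ones, with the lowest value in WT 1. Its difference was -0.04 (95% interval -0.38 to 0.31, limma adjusted p = 0.9224). Cbfb (NM_001161458, chromosome 8, 105170674 to 105217988, plus strand), the subunit that strengthens DNA binding, stood at 68.7, 66.7 and 83.8 TPM in KO-labelled and 69.5, 74.7 and 74.8 TPM in WT-labelled libraries, and KO 3 was the highest. Its difference was -0.006 (95% interval -0.27 to 0.26). The sign of both is not settled, since it changed in 5 of 16 other settings for Runx1 and in 8 of 16 for Cbfb, among them scaling to the pan T cell genes. The ratio of Cbfb to Runx1 was 1.75 ± 0.17 in the KO-labelled libraries and 1.72 ± 0.22 in WT-labelled ones (SD, n = 3 each, exact permutation p = 1, two-sided). Of the other RUNX genes, Runx3, named after its values were seen, stood at 173 to 193 TPM in KO-labelled and 177 to 178 TPM in WT-labelled libraries, and Runx2 at 51.4 to 57.0 TPM in KO-labelled and 63.2 to 66.3 TPM in WT-labelled libraries (-0.24, limma adjusted p = 0.2802).

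Among the forkhead partners Foxo1, which drives genes of naive and circulating T cells, differed without overlap. Its transcript (NM_019739, chromosome 3, 52268337 to 52350109, plus strand) stood at 93.7, 94.3 and 80.3 TPM in KO-labelled libraries 1, 2 and 3, and at 107, 140.1 and 126 TPM in WT-labelled libraries 1, 2 and 3. Here KO 3, the KO-labelled library with the most Foxp3, was the lowest. The difference was -0.47 (SE 0.13, limma adjusted p = 0.1911), and -0.27 when libraries were scaled to the pan T cell genes, where the groups overlapped.

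Foxo3 (NM_019740, chromosome 10, 42185786 to 42276742, minus strand), a related factor that also drives cell death genes, stood at 31.7, 32.1 and 36.3 TPM in the KO-labelled libraries and at 31.9, 41.0 and 42.5 TPM in WT-labelled ones. The library labelled WT 1 lay among the KO-labelled ones. The difference was -0.19 (95% interval -0.52 to 0.13, limma adjusted p = 0.5331), and 0.002 after scaling to the pan T cell genes. The ratio of Foxo1 to Foxo3 was 2.95, 2.94 and 2.22 in KO-labelled and 3.36, 3.41 and 2.96 in WT-labelled libraries, which do not overlap (exact permutation p = 0.1, the smallest possible). Foxp1 (NM_001197322, chromosome 6, 98925342 to 99028298, minus strand), which keeps T cells quiescent, stood at 29.7, 37.2 and 34.0 TPM in KO-labelled and 35.2, 40.6 and 38.0 TPM in WT-labelled libraries, with overlap between KO 2 and WT 1. Its difference was -0.17 (95% interval -0.46 to 0.11, limma adjusted p = 0.532), and 0.02 after scaling to the pan T cell genes. The measured Foxp1 row spans 17.2% of the length of the gene in the GENCODE annotation of the same build, from a start inside it, so it is 1 of several forms of that gene.

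**Figure D3:**
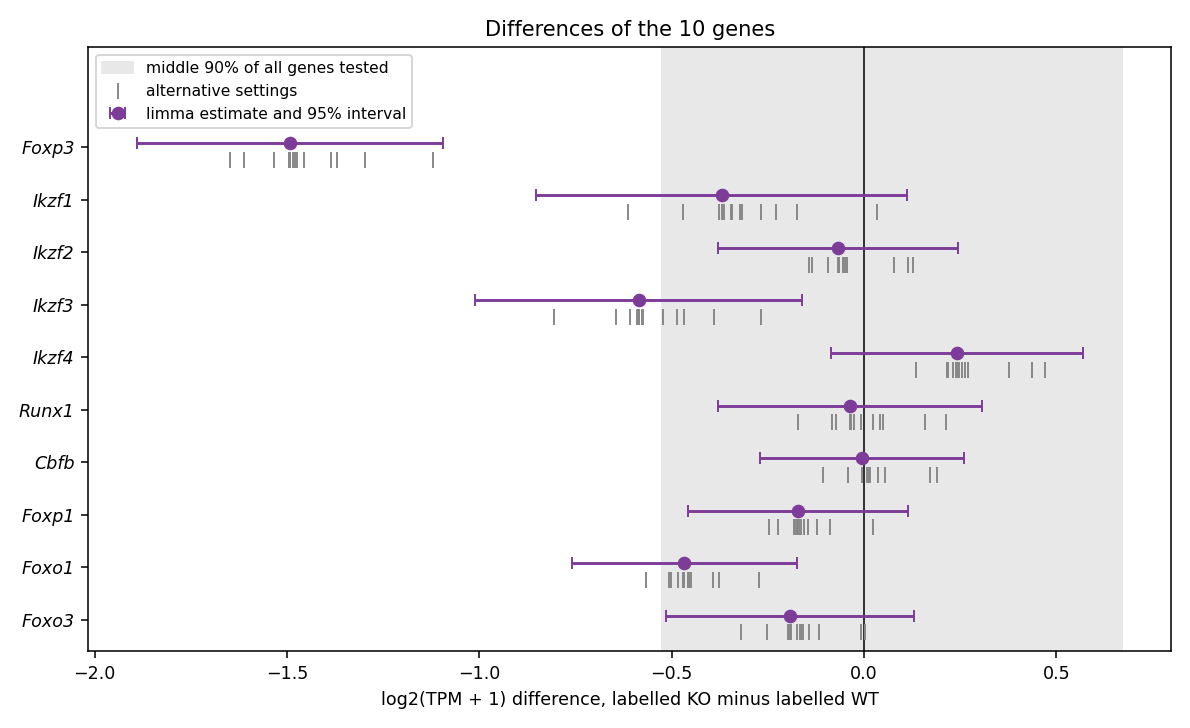
Difference in log2(TPM + 1), labelled KO minus labelled WT (x axis), of the 10 genes: points are limma estimates with 95% intervals, grey ticks the 16 other settings, and the grey band runs from -0.53 to 0.67, the middle 90% of all genes tested. The whole interval of Foxp3 lies below that band, and the estimates of the other 9 genes except Ikzf3 lie inside it.

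Most members lay below 0. In the limma fit 9 of the 10 members lay below 0, against 50.5% of all genes tested, and the median was -0.18, against -0.003 for all genes. With libraries scaled to the pan T cell genes, which moves the median of all genes to 0.19, 4 of the 10 lay below 0, and with the epithelial covariate 5 did. Foxp3, Ikzf3 and Foxo1 were below 0, and Ikzf4 above 0, in all 16 other settings.

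The order of the members by level differed at the top. In the KO-labelled libraries the mean levels ran from Ikzf3 (212 TPM) and Foxp3 (201 TPM) through Foxo1 (89.4 TPM), Ikzf2 (77.7 TPM), Cbfb (73.1 TPM), Ikzf1 (53.9 TPM), Runx1 (41.8 TPM) and Ikzf4 (38.7 TPM) to Foxp1 (33.6 TPM) and Foxo3 (33.4 TPM). Foxp3 was above Foxo1, and Cbfb above Ikzf1, in all 3 libraries; the other neighbours changed places in at least 1 library. In the WT-labelled libraries they ran from Foxp3 (568 TPM) and Ikzf3 (325 TPM) through Foxo1 (124 TPM), Ikzf2 (80.7 TPM), Cbfb (73.0 TPM), Ikzf1 (68.2 TPM), Runx1 (43.2 TPM), Foxo3 (38.5 TPM) and Foxp1 (37.9 TPM) to Ikzf4 (32.2 TPM). There each gene was above the next in all 3 libraries, except that Foxo3 was above Foxp1 in 2 of 3. In the library labelled WT 1 Foxo3, at 31.9 TPM, was also below Ikzf4, at 32.1 TPM. Foxp3 exceeded 96.1% of the genes tested in the KO-labelled libraries and 99.0% in WT-labelled ones, and the lowest members still exceeded 70.2% and 68.9%.

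Foxp3 was lower relative to each of its 9 partners. The ratio of Foxp3 to Ikzf3 was 0.918, 0.885 and 1.02 in the KO-labelled libraries and 1.92, 1.77 and 1.61 in WT-labelled ones, the smallest of the 9 differences at -0.91 log2 units. The ratio of Foxp3 to Ikzf4 was 4.91, 5.43 and 5.26 in KO-labelled and 14.1, 20.2 and 18.6 in WT-labelled libraries, the largest at -1.75. The ratio to Runx1 was 4.44, 4.64 and 5.28 in KO-labelled and 12.8, 13.9 and 12.7 in WT-labelled libraries. None of the 9 ratios overlapped between the groups, and the exact permutation p was 0.1 for each before and after adjustment over the 9, the smallest possible. All 9 share the Foxp3 value, so they are not independent.

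Genes were also ranked by how closely their profile over the 6 libraries followed that of Foxp3, by the root mean square difference of centred log2 values among 8282 genes averaging at least 10 TPM. The nearest was Prg4, which encodes lubricin, at 0.102 log2 units, with 20.5, 18.2 and 29.7 TPM in the KO-labelled libraries and 46.0, 76.6 and 69.2 TPM in WT-labelled ones. It was followed by Prrt1 (0.153), Matk (0.169), a kinase that inhibits SRC family kinases, Frmd5 (0.174), Myo3b (0.182), Mir7-1 (0.197), 2610020H08Rik (0.198) and Il6st (0.211), the shared receptor chain of the interleukin-6 family. Il6st stood at 83.1, 85.0 and 84.3 TPM in KO-labelled and 139.5, 256 and 219 TPM in WT-labelled libraries. Among the members the nearest to Foxp3 was Ikzf3, at 0.463, and the farthest Ikzf4, at 0.882. Runx1 and Foxo3 were the closest pair of members at 0.112. Values were centred over all 6 libraries, so each distance includes the difference between the groups and is not separate from it. That difference was -1.49 for Foxp3, -0.59 for Ikzf3 and 0.24 for Ikzf4.

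Genes that Foxp3 is known to raise or lower were counted next. The list medians depend on the scaling. Relative to the pan T cell genes they are 0.20 higher, so that those near 0 turn positive. The median of all genes tested also moves, to 0.19, and stands beside every list value scaled in this way. The genes Foxp3 is known to raise then stay at -0.20, with 11 of 19 below 0. Those it is known to lower are at 0.48, with 13 of 17 above 0. Of 19 tested genes that it is known to raise, 13 lay below 0 and 6 above, with a median of -0.40; 0 passed over all genes, and at an unadjusted p under 0.05 there were 8 lower and 2 higher, against 7.86% and 7.80% of all genes. The costimulator Icos stood at 565 ± 23.6 TPM in KO-labelled and 891 ± 132 TPM in WT-labelled libraries, the adenosine-producing enzyme Nt5e at 147 ± 10.7 TPM in KO-labelled and 222 ± 45.8 TPM in WT-labelled libraries, and the ectonucleotidase Entpd1 at 25.3 ± 2.14 TPM in KO-labelled and 35.4 ± 3.86 TPM in WT-labelled libraries (SD, n = 3 each). The 2 that were higher in the KO-labelled libraries, named after their values were seen, were Tnfrsf9 (0.54) and Ebi3 (0.42).

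Of 17 tested genes that Foxp3 is known to lower, 12 lay above 0 and 5 below, with a median of 0.28 and 0 adjusted calls. At an unadjusted p under 0.05 there were 5 higher and 3 lower, against 7.80% and 7.86% of all genes. The cytokines Il17a, at 41.6 ± 7.14 TPM in KO-labelled and 19.7 ± 4.70 TPM in WT-labelled libraries, and Il17f, at 27.2 ± 8.98 TPM in KO-labelled and 10.4 ± 4.35 TPM in WT-labelled libraries, were higher in every KO-labelled library. So was the CD40 ligand Cd40lg, at 45.9 ± 0.99 TPM in KO-labelled and 26.2 ± 8.60 TPM in WT-labelled libraries. The 3 that were lower, named after their values were seen, were the phosphatase Ptpn22 (-0.47), the Th1 factor Tbx21 (-0.60) and the cytokine receptor Il7r (-0.43).

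Of 26 other transcription factors that work with Foxp3, 15 lay below 0 and 11 above (median -0.07). Relative to the pan T cell genes 7 lay below and 19 above (median 0.12, against 0.19 for all genes tested). In the unscaled fit 2 were lower and 2 higher at an unadjusted p under 0.05, against 7.86% and 7.80% of all genes. There were 0 adjusted calls. Gata3, which marks a subset of colon Tregs, stood at 249, 166 and 222 TPM in KO-labelled and 127, 127 and 117 TPM in WT-labelled libraries. The groups did not overlap, with a difference of 0.76 (limma adjusted p = 0.1296). The summed level of markers of gamma delta T and innate lymphoid cells was 279 to 506 TPM in KO-labelled and 259 to 287 TPM in WT-labelled libraries, and its part in this value was not tested. Nfatc1, a factor activated by calcium, stood at 69.8 ± 9.88 TPM in KO-labelled and 92.8 ± 14.2 TPM in WT-labelled libraries, with overlap.

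Of 16 tested genes that regulate the Foxp3 locus, 12 lay below 0 and 4 above (median -0.21). Relative to the pan T cell genes 9 lay below and 7 above (median -0.02, against 0.19 for all genes tested). In the unscaled fit 6 were lower and 0 higher at an unadjusted p under 0.05, against 7.86% and 7.80% of all genes. There were 0 adjusted calls. Malt1, which relays antigen receptor signals to NF-κB, stood at 113 ± 19.7 TPM in KO-labelled and 179 ± 36.9 TPM in WT-labelled libraries. The DNA demethylase Tet2 stood at 22.0 ± 2.02 TPM in KO-labelled and 30.7 ± 2.61 TPM in WT-labelled libraries, and the histone methyltransferase Kmt2b at 30.7 ± 6.66 TPM in KO-labelled and 43.6 ± 1.61 TPM in WT-labelled libraries. Enzymes that modify Foxp3 or serve it as corepressors had 14 of 17 tested genes below 0 (median -0.17) and 0 adjusted calls. Relative to the pan T cell genes 5 of 17 lay below 0 (median 0.02, against 0.19 for all genes tested). In the unscaled fit 2 of these enzymes were lower and 0 higher at an unadjusted p under 0.05, against 7.86% and 7.80% of all genes. The acetyltransferases Crebbp, at 31.6 ± 3.12 TPM in KO-labelled and 40.9 ± 4.48 TPM in WT-labelled libraries, and Ep300, at 34.0 ± 4.39 TPM in KO-labelled and 42.1 ± 4.08 TPM in WT-labelled libraries, did not overlap between the groups, and the deacetylase Hdac7 did, at 28.4, 38.7 and 75.7 TPM in KO-labelled and 63.3, 85.1 and 96.9 TPM in WT-labelled libraries.

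Genes tied to the Foxo factors were counted in the same way. Of 20 Foxo target genes in T cells, 15 lay below 0 and 5 above (median -0.16). Relative to the pan T cell genes 9 lay below and 11 above (median 0.03, against 0.19 for all genes tested). In the unscaled fit 4 were lower and 0 higher at an unadjusted p under 0.05, against 7.86% and 7.80% of all genes. There were 0 adjusted calls. The stress protein Sesn1 stood at 41.6 ± 6.97 TPM in KO-labelled and 69.4 ± 7.03 TPM in WT-labelled libraries, the transcriptional coregulator Cited2 at 68.7 ± 3.53 TPM in KO-labelled and 91.6 ± 5.42 TPM in WT-labelled libraries, and Rictor, a subunit of mTOR complex 2, at 16.5 ± 0.92 TPM in KO-labelled and 23.1 ± 1.87 TPM in WT-labelled libraries. Of 18 kinases and phosphatases upstream of Foxo, Rictor included, 14 lay below 0 (median -0.08), with 0 adjusted calls. Relative to the pan T cell genes 6 lay below 0 (median 0.11, against 0.19 for all genes tested). In the unscaled fit 2 of the 18 were lower and 0 higher at an unadjusted p under 0.05, against 7.86% and 7.80% of all genes. The phosphatase Phlpp1 stood at 25.1 ± 1.43 TPM in KO-labelled and 31.2 ± 0.84 TPM in WT-labelled libraries and Akt1, whose product moves Foxo proteins out of the nucleus, at 117 ± 8.81 TPM in KO-labelled and 96.5 ± 16.3 TPM in WT-labelled libraries.

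Of 16 genes of the NuRD chromatin complex or associated with Ikaros proteins, 8 lay below 0 and 8 above (median -0.04). Relative to the pan T cell genes 4 lay below and 12 above (median 0.15, against 0.19 for all genes tested). At an unadjusted p under 0.05 the unscaled fit had 1 lower and 0 higher, against 7.86% and 7.80% of all genes. There were 0 adjusted calls. The NuRD remodeller Chd3 stood at 117 ± 31.7 TPM in KO-labelled and 169 ± 30.2 TPM in WT-labelled libraries, Mta3 at 62.7 ± 10.5 TPM in KO-labelled and 75.1 ± 7.02 TPM in WT-labelled libraries, and Mbd3 at 62.9 ± 8.61 TPM in KO-labelled and 52.8 ± 3.96 TPM in WT-labelled libraries, all with overlap. Of 18 tested other members of the 3 families, 10 lay below 0 and 8 above (median -0.08), with 0 adjusted calls. Relative to the pan T cell genes 4 lay below and 14 above (median 0.115, against 0.19 for all genes tested). In the unscaled fit 3 of the 18 were lower and 3 higher at an unadjusted p under 0.05, against 7.86% and 7.80% of all genes. Foxj1, at 5.55 ± 0.84 TPM in KO-labelled and 3.51 ± 0.29 TPM in WT-labelled libraries, was higher in every KO-labelled library. The low forkhead genes Foxa1, Foxa2 and Foxa3, which act in the gut epithelium and are named after their values were seen, were above 0 at 0.70, 0.51 and 0.63, and 16 of the 17 epithelial markers were above 0 in the same libraries (median 0.83); their part in these values was not tested.

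**Figure D4:**
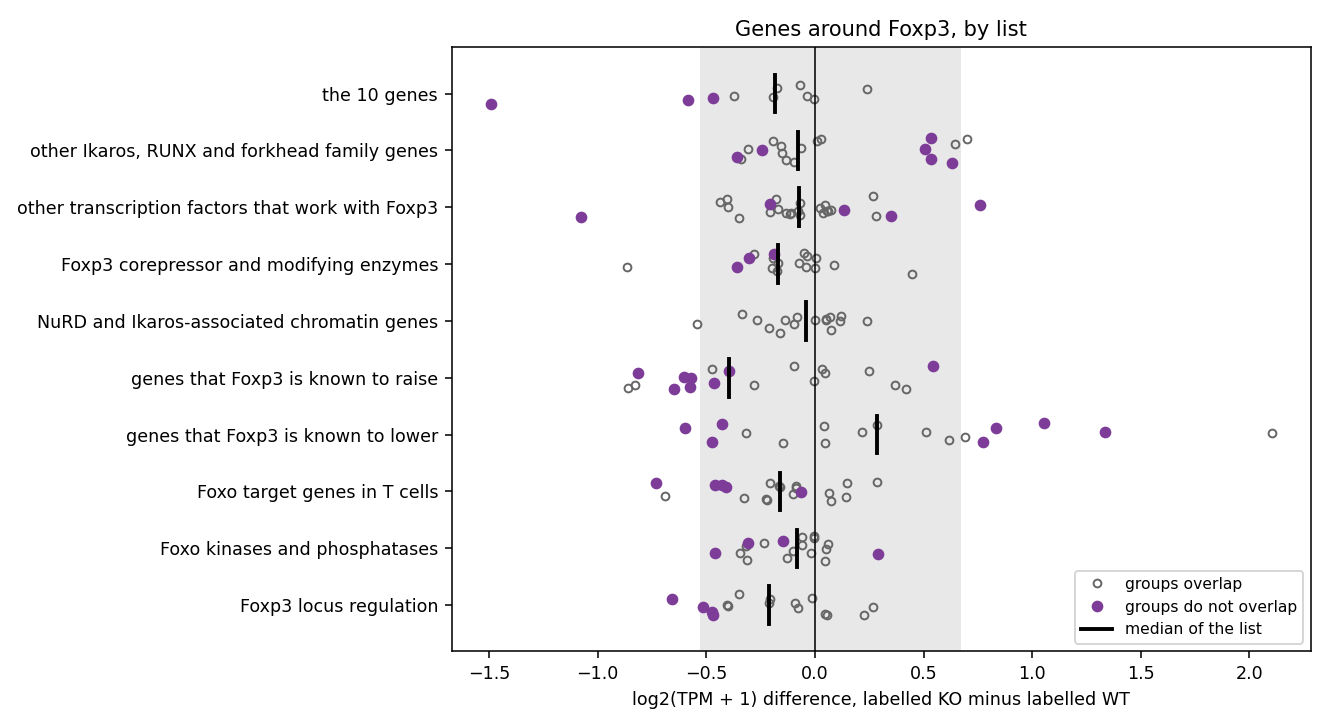
Difference in log2(TPM + 1), labelled KO minus labelled WT (x axis), of each tested gene in the 10-gene set and in 9 lists of related genes; filled points are genes whose groups do not overlap, black bars are list medians and the grey band is the middle 90% of all genes tested. The list of genes that Foxp3 is known to raise has a median of -0.40 and that of genes it is known to lower 0.28.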

How the data were processed

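Libraries were made with a stranded mRNA kit from 1.3 µg of Trizol-extracted RNA, per the labels' protocols. The authors deposited TPM in 1 table with 1 row per RefSeq transcript and symbol, per the file headers; the submitters' processing notes name mm10, HOMER 4.9.1, STAR 2.5.3a, Trim Galore 0.4.4 and FastQC 0.11.8, with no order or settings. TPM sums to between 634200 and 644662 per library. TPM times transcript length was a whole multiple of 1 step per library (within 0.1 for at least 99.99% of values up to 500 reads), which gave the reads quoted. No column lacked a sample (0).

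Genes with at least 1 TPM in at least 3 of 6 libraries were fitted on log2(TPM + 1) with limma 3.58.1 in R 4.3.3 (variance trend, genotype only, two-sided, Benjamini-Hochberg, threshold 0.05). Differences are on the log2(TPM + 1) scale, which understates those of low genes. voom used the recovered reads. The code was tested on simulated data. Named genes are the 10 members, the 3 genes of smallest p per list, Nr1d1, Nr1d2 and the 8 profiles nearest to Foxp3. The members and lists were chosen with earlier results of these data known. No label ties the libraries to separate animals, so p-values cover only the spread between these libraries, which may be technical. Libraries of a group differed from each other (SD of log2 differences at least 0.42). A gene that the rule also names is not reported here.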

Additional observations from a re-analysis of the deposited data

How the results depend on the processing

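Over 16 other settings, 160 member values were computed: 140 kept their direction and their side of the threshold, 19 turned in sign and 1 came to pass. Scaling to the pan T cell genes turned Ikzf2 (0.13), Runx1 (0.16), Cbfb (0.19), Foxp1 (0.023) and Foxo3 (0.002), and raised the members without overlap to 5 of 10, of which 2 were lower and 3 higher in the KO-labelled libraries, against 4.06% and 22.9% of all genes. The epithelial covariate turned Ikzf1 (0.033), Ikzf2 (0.12), Runx1 (0.21) and Cbfb (0.17). Cbfb also turned with quantile normalization (0.014) and voom (0.007). Without 1 library, Cbfb ran from -0.11 to 0.055, Runx1 from -0.17 to 0.048, Ikzf2 from -0.14 to 0.077 and Foxp3 from -1.65 to -1.37. The same settings gave 3 to 6 members without overlap, 0 to 1 members called and 0 to 14 genes called; without KO 2 there were 4 lower and 2 higher (12.9% and 13.5% of all genes), without KO 3 there were 5 lower (23.6%) and without WT 1 there were 6 lower (22.1%). The 14 genes, Foxp3 among them, passed without WT 1. The adjusted p of Foxp3 ran from 0.02829 to 0.5378. With the replicate number as a replicate block, Foxp3 differed by -1.49 (limma adjusted p = 0.1601) and 0 genes passed; same-numbered libraries did not deviate together (correlations 0.004, -0.22 and -0.04), so the numbers were not taken as pairs. edgeR and DESeq2 were not run on the recovered reads, and voom on those reads, chosen after seeing the data, took their place. The cause of these changes was not tested. Counting error is small for the members, the lowest of which had 602 reads in a library, so the 3 libraries per group limit the precision.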
